A study of Homo sapiens with 8 samples.

Results

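The genes described here are antisense noncoding genes, whose symbols end in -AS and 1 digit after the name of a coding gene, together with those coding partners. They were measured in H1 cells, an established human embryonic stem cell line. One group had received a GFP-marked lentivirus with an shRNA that targets NAT10, an RNA acetyltransferase that makes N4-acetylcytidine. The other had received the same kind of virus with a negative control shRNA, and cells of both groups were enriched for GFP and expanded under puromycin. Each group had 4 poly(A)-selected libraries. Members were selected on their level alone: they were the antisense genes with a mean of at least 30 normalized counts (reads divided by the library's size factor) over all 8 libraries, with GNAS-AS1 and INSIG2-AS1 left out. That gave 230 members among 470 antisense genes of the table and 17546 genes in all. Of the members, 215 had their coding partner in the table, which made 215 pairs with 213 distinct partners. For the other 15, ZEB1-AS1 among them, the partner was not analysed here.

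An antisense gene is transcribed from the strand opposite to a coding gene, either across it or away from it out of a shared promoter region. Such RNAs are often kept at low levels by nuclear decay, and a few are known to act on their neighbour or as free RNAs, while most have no known function. Poly(A) selection captures only those that carry a poly(A) tail.

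NAT10, the targeted gene, had 1647, 1592, 1625 and 1644 normalized counts in the NAT10 knockdown libraries, against 2207, 2285, 2048 and 2173 in the control shRNA libraries. The groups did not overlap, and the log2 fold change was -0.42 (limma adjusted p = 5.88e-14). Libraries held 15574631 to 16305014 reads. Of the 12 stem cell markers, 12 were in the table, and their summed level was 144817 to 149087 normalized counts in knockdown libraries against 115637 to 119430 in control libraries (8 rose, 0 fell). Of 8 fibroblast markers 4 were in the table, with sums of 12943 to 14573 in knockdown and 9042 to 9739 in control libraries, and 3 of these 4 rose. COL3A1, DCN, LUM and TWIST2 had no row in the table. Of 6 neural markers 4 were in the table, with sums of 358 to 423 in knockdown and 363 to 426 in control libraries (2 rose, 1 fell). Of 6 mesendoderm markers only MIXL1 was in the table, at 64.6 to 96.5 in knockdown and 32.7 to 36.4 in control libraries, and of 3 blood markers 0 were. Of all 17546 genes, 32.3% rose and 32.4% fell. The part of the marker shifts in the antisense results was not tested. In bulk RNA, fewer cells that express a gene and less RNA per cell cannot be told apart. With no rescue group, lower NAT10 and off-target effects of the shRNA cannot be told apart either. Separate cultures behind the 4 libraries of a group are not stated in the labels, and p-values therefore reflect the spread among libraries alone, which may be technical.

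The promoters of 3 pairs show how an antisense gene and its partner can start side by side. Among the pairs named below, they were those whose RefSeq starts face away from each other within 250 bases. The 3 pairs behaved differently in the knockdown. In SOX21-AS1 both genes rose, in RAB35-AS1 the antisense gene fell and its partner rose, and in FOXD3-AS1 only the partner rose. Each line gives the antisense gene's window from RefSeq on GRCh38.p14, from 250 bases before its start to 50 bases after it, read 5′ to 3′ on its own strand. Capitals run from the start base of the coding partner, which is transcribed the other way, to the base before the antisense start. The windows are chr13:94712466-94712765 (plus strand) for SOX21-AS1, chr12:120116657-120116956 (plus strand) for RAB35-AS1 and chr1:63322409-63322708 (minus strand) for FOXD3-AS1.
SOX21-AS1: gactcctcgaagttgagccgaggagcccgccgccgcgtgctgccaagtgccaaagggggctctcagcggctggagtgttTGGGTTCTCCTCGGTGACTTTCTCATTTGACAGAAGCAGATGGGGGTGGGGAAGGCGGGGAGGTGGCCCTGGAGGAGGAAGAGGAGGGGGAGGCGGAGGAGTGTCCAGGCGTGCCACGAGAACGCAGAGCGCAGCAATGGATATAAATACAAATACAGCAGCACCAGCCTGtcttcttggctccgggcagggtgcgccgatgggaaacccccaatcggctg
RAB35-AS1: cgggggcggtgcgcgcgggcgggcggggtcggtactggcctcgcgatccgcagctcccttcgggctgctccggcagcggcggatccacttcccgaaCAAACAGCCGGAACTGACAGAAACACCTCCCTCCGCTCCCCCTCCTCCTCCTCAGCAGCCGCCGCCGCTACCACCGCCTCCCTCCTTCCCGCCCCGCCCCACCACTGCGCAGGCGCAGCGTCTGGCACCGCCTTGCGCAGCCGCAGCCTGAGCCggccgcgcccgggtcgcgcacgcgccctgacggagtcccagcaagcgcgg
FOXD3-AS1: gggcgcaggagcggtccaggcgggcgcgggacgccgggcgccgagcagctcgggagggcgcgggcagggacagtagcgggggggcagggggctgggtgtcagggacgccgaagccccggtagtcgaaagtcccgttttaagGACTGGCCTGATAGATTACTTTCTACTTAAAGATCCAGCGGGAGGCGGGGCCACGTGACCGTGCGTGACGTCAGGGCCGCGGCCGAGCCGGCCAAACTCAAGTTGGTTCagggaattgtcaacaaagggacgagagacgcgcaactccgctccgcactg
The capitals span 171 bases in SOX21-AS1, 154 in RAB35-AS1 and 109 in FOXD3-AS1. The windows hold 18, 41 and 33 CpG dinucleotides in the same order. GGGCGG, the GC box, was searched on both strands with overlapping matches counted, and had 5 matches in RAB35-AS1 and 0 in the other two. CCAAT and TATAAA, also searched on both strands, each had 1 match in SOX21-AS1. A single RefSeq window was found for 156 of the 230 members. GGGCGG was present in 63.5% of these windows, against 44.9% of 34796 RefSeq promoters of the same length, and CCAAT in 32.7% against 34.6%. TATAAA was present in 4.49% of the member windows against 11.6% of those promoters, and the median number of CpG was 26.5 against 14. The richness in GGGCGG and CpG was not particular to the antisense genes. In the windows found for 117 coding partners, GGGCGG was present in 69.2% and the median number of CpG was 31. CCAAT was present in 27.4% of the partner windows and TATAAA in 9.40%. These shares describe letters in a window and locate no bound factor. GENCODE 29, used below for geometry, starts SOX21, RAB35, FOXD3 and FOXD3-AS1 elsewhere than RefSeq does. It sets the starts of SOX21-AS1 and SOX21 317 bases apart, and gives the RAB35-AS1 and FOXD3-AS1 pairs shared exons.

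By the GENCODE 29 annotation on GRCh38, 172 of the 230 members were typed antisense, 29 processed transcript, 23 lincRNA and 2 bidirectional promoter lncRNA. KRT10-AS1 was typed protein-coding, and EMC3-AS1, SLC44A3-AS1 and TP73-AS1 were transcribed pseudogenes. In 214 of the 215 pairs the genes lay on opposite strands, the exception being FAM131B-AS2. Exons of both genes overlapped in 166 pairs, where a median of 9.40% of the antisense exon bases was shared. Gene bodies overlapped without shared exons in 24 pairs. Another 22 were divergent, with starts within 1000 bases and no shared exon, and 3 lay apart. The strand setting of the read counting is not given in the sources used here. Where exons overlap, reads of the antisense gene and of its partner therefore cannot be told apart in the shared stretch if counting ignored strand.

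The antisense genes leaned downward in the knockdown. Of the 230, 49 rose and 98 fell, while 83 were not called by the test, a moderated limma fit over all 17546 genes with an adjusted p under 0.05. That is 63.9% called, near the 64.7% of all genes, of which 32.3% rose and 32.4% fell. The median log2 fold change of the members was -0.18, and that of all genes was 0.00. Falls of at least 2-fold were found in 22 of the 230 members and rises in 8, where the whole table had 6.23% and 3.36% of genes. The groups did not overlap for 131 members (57.0%), against 56.7% of all genes. The mean that chose the members includes both groups: 29 members averaged under 30 in knockdown, 25 of them called, and 8 averaged under 30 in control libraries, 5 of them called. By geometry, 40 members with exon overlap rose and 66 fell, 3 with body overlap rose and 12 fell, and 4 divergent members rose and 13 fell. Just inside the minimum were SGSM2-AS1, at a mean of 30.05, and DDX11-AS1, at 30.08. Just outside were KDM4A-AS1 at 29.4 and RGMB-AS1 at 29.3.

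**Figure D1:**
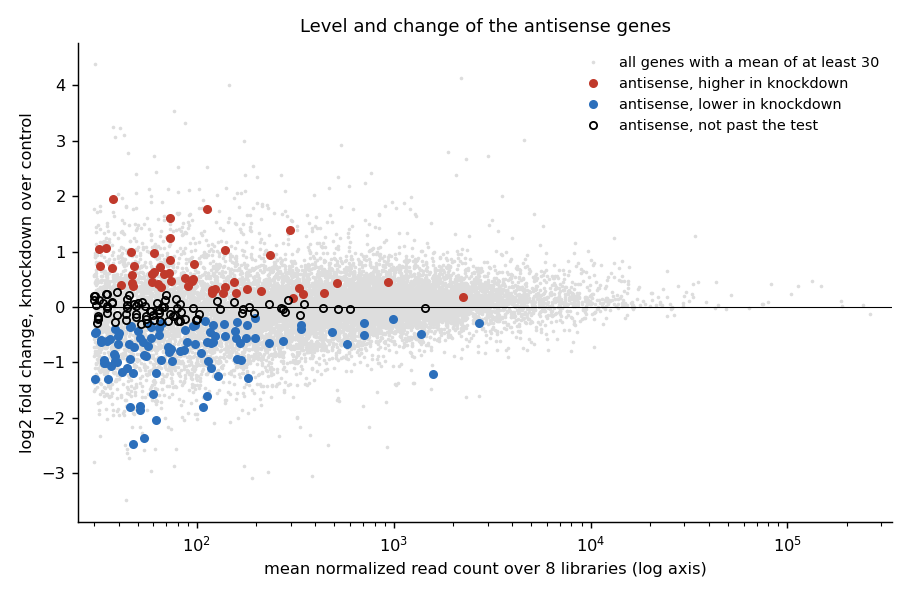
Each antisense gene by its mean normalized count over 8 libraries (x, log axis) and its log2 fold change, knockdown over control (y), over grey points for all genes with a mean of at least 30. Filled red circles mark the 49 antisense genes that rose, blue the 98 that fell and open circles the 83 not past the test; most lie at means below 129.7, where all genes spread widely.

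The downward lean was close to that of coding genes with equally few reads. The quartiles of the members' means were 46.1 and 129.7 normalized counts, and between them 23.8% of 1725 protein-coding genes rose and 42.3% fell (median log2 fold change -0.16). The 114 members in that range had 27 rises (23.7%) and 47 falls (41.2%), and their median was -0.21. Called falls of at least 2-fold numbered 175 among the 1725 coding genes and 12 among the 114 members. Such rises numbered 83 and 3. This class of coding genes was chosen after seeing the data. Divergent transcripts, whose symbols end in -DT, had 15 rises and 70 falls among 115 genes (median -0.49), and intergenic LINC genes had 28 rises and 55 falls among 112 (median -0.20). No difference between these classes was tested. Scaled to library totals in place of size factors, the median of all genes moved by -0.11 and the members split into 36 rises and 117 falls.

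**Figure D2:**
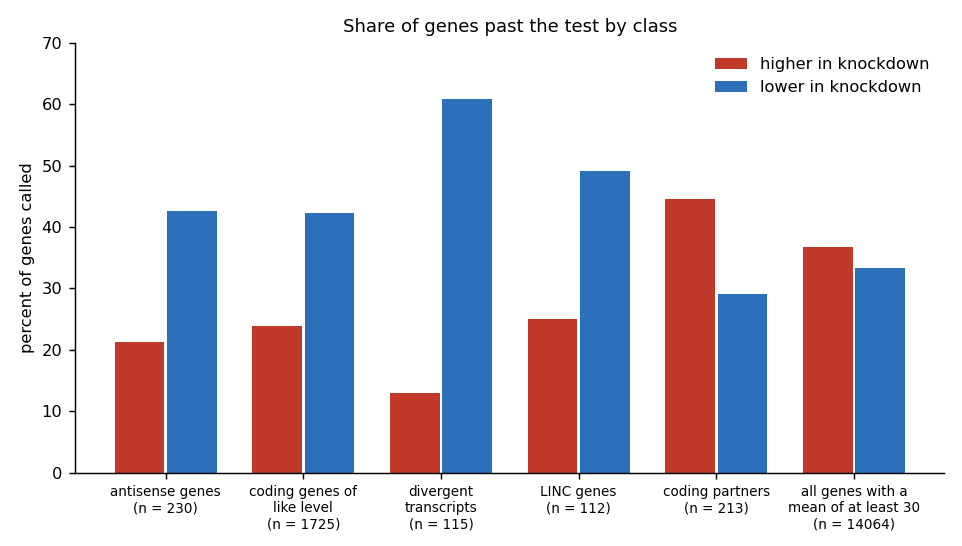
Percent of genes of each class that passed the test (y), with rises in red and falls in blue, from the fit over all genes. Antisense genes and coding genes of like level have nearly the same bars, falls reach 60.9% among divergent transcripts, and coding partners lean the other way.

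The largest rises included SOX21-AS1, THBS3-AS1 and VPS9D1-AS1. GOLGA4-AS1, antisense to the golgin gene GOLGA4 (GRCh38, chr3:37241789-37244177, minus strand), had 52.5, 64.3, 48.8 and 73.9 normalized counts in knockdown libraries, against 14.5, 17.8, 11.5 and 15.4 in control libraries. All 4 knockdown libraries lay above all controls (log2 fold change 1.94 ± 0.193 SE, limma adjusted p = 1.29e-12). GOLGA4 itself had 1869, 1896, 1714 and 1935 counts in knockdown and 1634, 1720, 1653 and 1601 in control libraries, with overlap between the groups and a log2 fold change of 0.16 that falls to 0.06 (limma adjusted p = 0.206) with library totals. THBS3-AS1, antisense to the thrombospondin gene THBS3 and host of the microRNA gene MIR92B, had 189, 157, 162 and 191 counts in knockdown libraries, against 49.3, 53.5, 50.8 and 47.2 in control libraries. The groups were far apart, with a log2 fold change of 1.78 ± 0.111 SE (limma adjusted p = 1.30e-19), and 41.6% of its exon bases are shared with THBS3. VPS9D1-AS1 was the most abundant of the 10 largest rises, at 461, 404, 425 and 430 counts in knockdown against 176, 157, 160 and 159 in control libraries (log2 fold change 1.40 ± 0.0701 SE, limma adjusted p = 2.01e-23). VPS9D1, its partner, did not pass the test (log2 fold change 0.14, limma adjusted p = 0.246).

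HRG-AS1 had 109.8 ± 12.5 counts in knockdown and 35.6 ± 4.69 in control libraries (SD, n = 4 each), a log2 fold change of 1.60. The other 5 of the 10 largest rises, NARF-AS2, MAGI2-AS3, SLC25A25-AS1, MAP3K4-AS1 and PPP1R26-AS1, had log2 fold changes from 0.97 to 1.06. Among their partners NARF, MAGI2, SLC25A25 and MAP3K4 did not pass the test. With library totals NARF was called at -0.20 (limma adjusted p = 0.000238) and MAP3K4 at -0.16 (limma adjusted p = 0.00207), while MAGI2 and SLC25A25 were not. PPP1R26, which encodes a regulatory subunit of protein phosphatase 1, fell by 0.14 on the log2 scale (limma adjusted p = 0.00703).

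Falls reached further than rises. SLC25A21-AS1, antisense to a mitochondrial carrier gene (chr14:37171888-37173811, plus strand), had 21.6, 24.5, 13.2 and 4.10 normalized counts in knockdown libraries, against 79.3, 78.3, 77.6 and 78.9 in control libraries. The control libraries were nearly equal and the knockdown libraries spread widely, the fourth being lowest. Its log2 fold change was -2.48 ± 0.513 SE (limma adjusted p = 0.00463) and -1.98 without that library. SLC25A21 itself had 116 ± 17.2 counts in knockdown and 112 ± 6.96 in control libraries (SD, n = 4 each), which did not pass the test (limma adjusted p = 0.759). INSYN1-AS1, antisense to a gene for a protein of inhibitory synapses, had 18.5, 14.3, 13.2 and 22.6 counts in knockdown against 88.9, 86.2, 96.7 and 88.6 in control libraries (log2 fold change -2.36 ± 0.171 SE, limma adjusted p = 2.93e-17). INSYN1 fell too, by 1.05 on the log2 scale.

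ZEB1-AS1, named for the transcriptional repressor ZEB1, had 25.7, 28.6, 16.3 and 24.6 counts in knockdown libraries against 105, 81.3, 123 and 92.4 in control libraries. The groups did not overlap (log2 fold change -2.04 ± 0.163 SE, limma adjusted p = 1.12e-15). DICER1-AS1 had 55.3 ± 4.76 counts in knockdown and 171 ± 10.3 in control libraries (SD, n = 4 each), a log2 fold change of -1.61 (limma adjusted p = 2.18e-18). DICER1, the enzyme that cuts microRNA precursors, fell far less, by 0.20 on the log2 scale. MCPH1-AS1, MAP3K14-AS1, MACC1-AS1, TSPEAR-AS1, TSPEAR-AS2 and NECTIN3-AS1 made up the rest of the 10 largest falls, with log2 fold changes from -1.86 to -1.30.

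**Figure D3:**
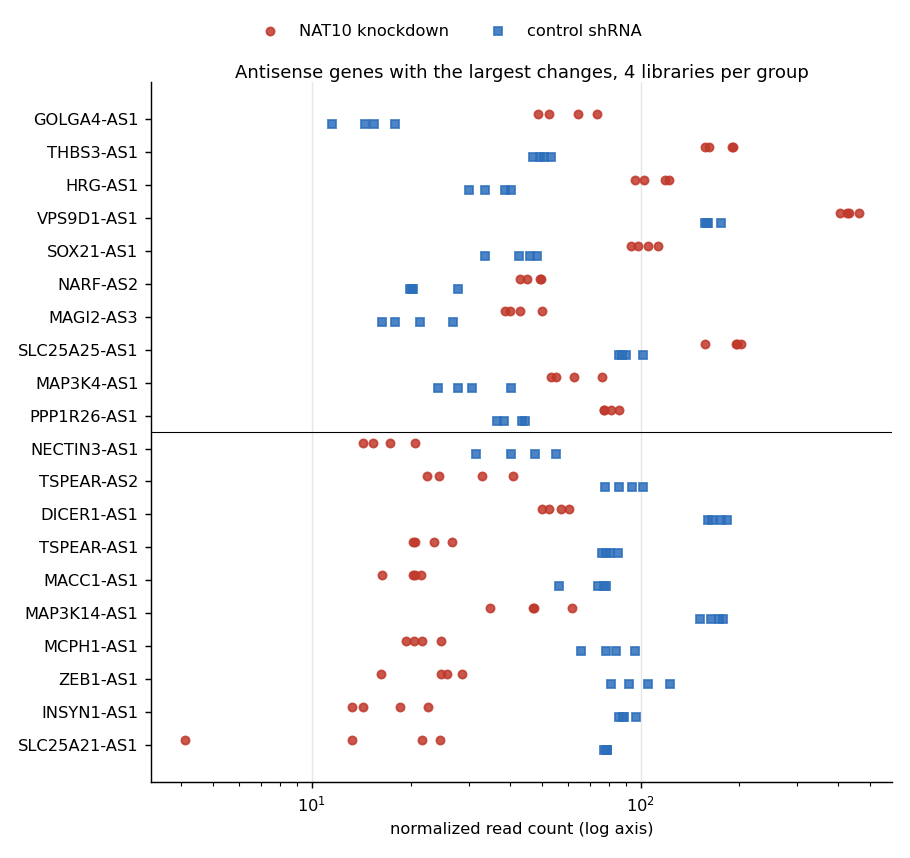
Normalized counts (x, log axis) of the 10 antisense genes with the largest rises (above the line) and the 10 with the largest falls (below), 4 NAT10 knockdown libraries as red circles above 4 control shRNA libraries as blue squares. In each gene the groups do not overlap, as the rule for naming required, and SLC25A21-AS1 has 1 knockdown library at 4.10.

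The most abundant antisense genes changed less, with 1 exception. OIP5-AS1, a conserved noncoding RNA also known as Cyrano, had 2344, 2608, 2381 and 2405 normalized counts in knockdown and 2956, 3020, 3059 and 2856 in control libraries (log2 fold change -0.29, limma adjusted p = 1.39e-09). GABPB1-AS1, antisense to a subunit of the transcription factor GABP (chr15:50354959-50372202, plus strand), was the exception, at 979, 915, 963 and 962 counts in knockdown against 2184, 2317, 2252 and 2100 in control libraries. The groups were far apart, with a log2 fold change of -1.21 ± 0.0399 SE (limma adjusted p = 4.30e-31), while GABPB1 rose by 0.25 on the log2 scale. FGD5-AS1 had 2384 ± 51.4 counts in knockdown and 2100 ± 100 in control libraries (SD, n = 4 each), a log2 fold change of 0.18 that becomes 0.08 (limma adjusted p = 0.0670) with library totals. THAP9-AS1 fell by 0.49 and TP73-AS1 by 0.21 on the log2 scale.

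FOXD3-AS1, whose promoter is shown above, had 1385, 1572, 1357 and 1424 normalized counts in knockdown libraries, against 1439, 1365, 1488 and 1496 in control libraries. The groups overlapped, and the log2 fold change of -0.01 did not pass the test (limma adjusted p = 0.795), though with library totals it was -0.12 (limma adjusted p = 0.0108). FOXD3, a forkhead transcription factor of pluripotent and neural crest cells, had 580, 637, 686 and 615 counts in knockdown against 270, 291, 252 and 240 in control libraries, a log2 fold change of 1.26 ± 0.0632 SE (limma adjusted p = 2.74e-23). Antisense reads per 100 FOXD3 reads were 229 ± 21.5 in knockdown and 554 ± 68.4 in control libraries (SD, n = 4 each).

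Summed over the 230 members, the level was 33841, 34136, 33538 and 33391 normalized counts in knockdown libraries, against 37823, 38253, 38903 and 38047 in control libraries. The knockdown sums averaged 33727 ± 331 and the control sums 38257 ± 465 (SD, n = 4 each), a change of -11.8%. Abundant genes weigh most in such a sum, which is no measure of a fall across the class. GABPB1-AS1 alone averaged 955 in knockdown and 2213 in control libraries. Of the other highest means, OIP5-AS1, THAP9-AS1 and TP73-AS1 fell, FGD5-AS1 rose and FOXD3-AS1 was not called. In CPM, the members made up 2027 ± 22.1 in knockdown and 2480 ± 42.7 in control libraries (SD, n = 4 each).

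The coding partners leaned upward with the authors' scaling. Of 213 partners, 95 rose and 62 fell, while 56 were not called, and the median log2 fold change was 0.10. With library totals 67 rose and 83 fell, so this lean turns with the scaling. Among all genes with a mean of at least 30, 36.7% rose and 33.3% fell. Per kilobase of exon, the antisense gene was above its partner in 57 of 215 pairs, and its mean normalized count per kilobase was a median of 32.7% of its partner's.

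Both genes were called in 104 pairs, of which 69 moved in the same direction (30 up, 39 down) and 35 in opposite directions. That is 66.3% in the same direction, beside 53.9% of the 219 other pairs of a noncoding gene and a coding neighbour with both genes called and 56.2% of 1081 such pairs of coding genes, and the difference was not tested. Of the 35 pairs with opposite directions, the antisense gene fell and the partner rose in 30, and the reverse held in 5. No background was set beside this split. All members together leaned downward and all partners upward, and the partners' lean turns with the scaling. Only the antisense gene was called in 35 pairs, only the partner in 55 and neither in 21. Across the 215 pairs the log2 fold changes had a Pearson correlation of 0.28 and a Spearman correlation of 0.27, given as a description, since both genes come from the same 8 libraries and some share bases. Among the 49 pairs without shared exons, 23 had both genes called, 16 in the same direction and 7 in opposite directions. Among the 22 divergent pairs, 12 had both called and 9 of these moved together, 2 up and 7 down.

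**Figure D4:**
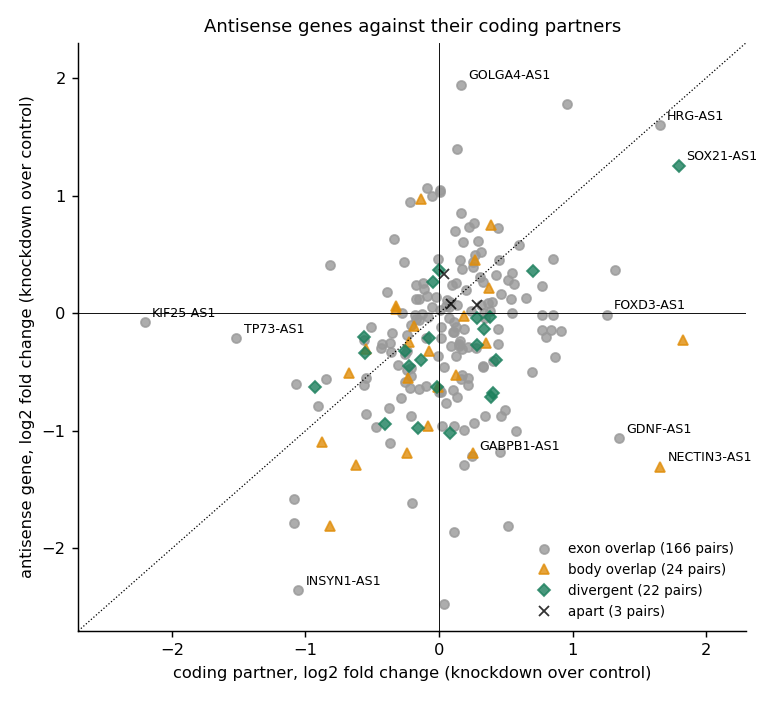
Log2 fold change, knockdown over control, of each antisense gene (y) against that of its coding partner (x) for 215 pairs, by geometry: exon overlap (166), body overlap (24), divergent (22) and apart (3). The dotted line marks equal change. At the upper right HRG-AS1 lies near it and SOX21-AS1 below it. NECTIN3-AS1 and GDNF-AS1 lie at the lower right, where the partner rose and the antisense gene fell.

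SOX21-AS1 and its neighbour SOX21, a transcription factor of the SOX family, rose together. SOX21-AS1 had 93.7, 98.0, 113 and 106 normalized counts in knockdown libraries against 42.5, 48.6, 46.0 and 33.7 in control libraries (log2 fold change 1.25 ± 0.134 SE, limma adjusted p = 1.25e-11). SOX21 had 160, 151, 170 and 159 counts in knockdown and 39.6, 40.6, 55.5 and 47.2 in control libraries (log2 fold change 1.79 ± 0.119 SE, limma adjusted p = 1.19e-18). SOX21-AS1 rose less than SOX21, with a change of log2 ratio of -0.54 ± 0.151 SE (limma adjusted p = 0.00209). The pair shares no exon. HRG-AS1 rose by 1.60 and HRG, the gene of a plasma glycoprotein, by 1.65, though HRG averaged only 17.9 ± 5.66 counts in knockdown and 4.85 ± 0.808 in control libraries (SD, n = 4 each).

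Among the pairs that fell together, TSPEAR-AS1 and TSPEAR-AS2 share 1 partner, TSPEAR, and so are not independent. TSPEAR-AS1 had 22.8 ± 2.97 normalized counts in knockdown and 80.2 ± 3.83 in control libraries, and TSPEAR had 15.6 ± 3.99 in knockdown and 33.7 ± 4.14 in control libraries (SD, n = 4 each). TRAF3IP2-AS1 fell by 1.10 and TRAF3IP2, an adaptor of interleukin 17 signalling, by 0.87 on the log2 scale, with no shared exon. MACC1-AS1 fell by 1.81 and MACC1 by 0.82, also with no shared exon.

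Opposite changes were largest for NECTIN3-AS1 and NECTIN3. NECTIN3, a cell adhesion molecule, had 1186, 1395, 1246 and 1269 normalized counts in knockdown libraries, against 401, 445, 409 and 358 in control libraries (log2 fold change 1.66 ± 0.0547 SE, limma adjusted p = 2.16e-28). NECTIN3-AS1 (chr3:110893708-111071553, minus strand) had 20.6, 14.3, 17.3 and 15.4 counts in knockdown against 55.1, 47.6, 31.6 and 40.4 in control libraries (log2 fold change -1.30 ± 0.202 SE, limma adjusted p = 1.86e-07). The genes share no exon, and in both genes the groups did not overlap. NECTIN3-AS1 averaged 30.3 over all libraries and 16.9 in knockdown, so it passed the minimum of 30 only through the control libraries. RAB35-AS1 had 74.1, 81.7, 83.3 and 64.6 counts in knockdown and 123, 146, 140 and 131 in control libraries (log2 fold change -0.82), while RAB35, a small GTPase of endosomal recycling, rose by 0.49. GDNF-AS1 fell by 1.06 while GDNF, a neurotrophic factor, rose by 1.35 on the log2 scale, at 29.9 ± 4.39 counts in knockdown and 12.1 ± 5.66 in control libraries (SD, n = 4 each). MAP3K14-AS1, UGDH-AS1, TNS2-AS1, KCTD21-AS1 and ST7-AS1 also fell while their partners rose, by 0.46 to 0.69 on the log2 scale. Of these pairs, GDNF-AS1, UGDH-AS1, KCTD21-AS1 and ST7-AS1 likewise averaged under 30 in knockdown libraries.

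The ratio of the antisense gene to its partner was tested directly in each pair, on a scale from which the library scaling cancels. The ratio fell in 97 of 215 pairs, rose in 32 and did not pass the test in 86, so 60.0% were called, against 57.2% of all 4150 neighbouring pairs of the fit. The median change of log2 ratio was -0.25. Among 521 other pairs of a noncoding gene with a mean of at least 30 and a coding neighbour, the ratio fell in 42.2% and rose in 20.2%, so the falls are near that background. In the 49 member pairs without shared exons, 23 fell and 7 rose.

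NECTIN3-AS1 had 1.34 ± 0.303 reads per 100 NECTIN3 reads in knockdown and 10.9 ± 2.47 in control libraries (SD, n = 4 each), a change of log2 ratio of -2.96 ± 0.217 SE (limma adjusted p = 6.85e-16). For MAP3K14-AS1, partner of the NF-kappaB-inducing kinase gene, the figures were 27.3 ± 8.75 in knockdown and 134 ± 10.1 in control libraries (SD, n = 4 each). In GLIPR1-AS1 the antisense gene did not pass the test (log2 fold change -0.22, limma adjusted p = 0.297) and GLIPR1 rose by 1.82. The reverse case was KIF25-AS1, at 223 ± 48.9 reads per 100 reads of the kinesin gene KIF25 in knockdown and 48.9 ± 4.85 in control libraries (SD, n = 4 each). KIF25 had 25.8 ± 4.78 counts in knockdown and 121.8 ± 13.7 in control libraries, while KIF25-AS1 had 56.5 ± 9.96 in knockdown and 60.0 ± 12.3 in control libraries and did not pass the test. Likewise TP73, a gene of the p53 family, fell by 1.52 on the log2 scale against 0.21 for TP73-AS1.

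**Figure D5:**
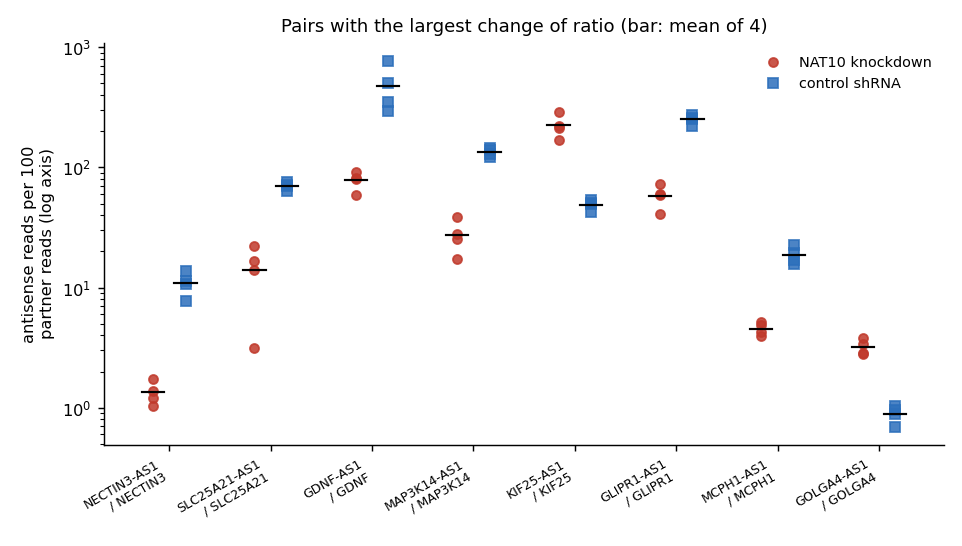
Antisense reads per 100 partner reads (y, log axis) in the 8 pairs with the largest change of ratio, NAT10 knockdown libraries as red circles left of control shRNA libraries as blue squares, with a bar at the mean of 4. NECTIN3-AS1 drops to 1.34 in knockdown against 10.9 in control libraries, and KIF25-AS1 and GOLGA4-AS1 are the pairs of the 8 in which the ratio rose.

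Other antisense genes fixed by name changed little. MCM3AP-AS1 had 149 ± 9.20 normalized counts in knockdown and 124 ± 6.10 in control libraries (SD, n = 4 each), a log2 fold change of 0.26 that becomes 0.15 (limma adjusted p = 0.145) with library totals. PRKCQ-AS1, divergent from the gene of protein kinase C theta, rose by 0.26, and NNT-AS1 fell by 0.33 with its partner NNT at -0.36 on the log2 scale. NUTM2A-AS1 and NUTM2B-AS1, chosen after their values were seen, are near-identical copies whose reads could be split between them.

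Genes of nuclear RNA decay and of double-stranded RNA handling were read from 2 lists, and no action of theirs on the members was tested. In the nuclear RNA surveillance list, which covers the exosome and its adaptors, 14 of 20 genes rose and 2 fell. The median log2 fold change was 0.15. Of all genes with a mean of at least 30, 36.7% rose and 33.3% fell. Their median level was 400 normalized counts against 1211 in the list, and no share at like level was taken. With library totals only 6 genes of the list rose and 3 fell. SRRT, which couples cap binding to RNA decay, had 5281 ± 193 normalized counts in knockdown and 3454 ± 196 in control libraries (SD, n = 4 each), a log2 fold change of 0.61. EXOSC10, a nuclear exosome nuclease, rose by 0.48, while ZFC3H1 fell by 0.56 and MTREX, the exosome helicase, by 0.12 on the log2 scale. In the double-stranded RNA list 19 of 20 genes were measured: 9 rose, 6 fell and the median was 0.08, and with library totals 7 rose and 8 fell, so this lean turns with the scaling. DHX9, a helicase that unwinds double-stranded RNA, had 8493 ± 225 counts in knockdown and 5360 ± 71.9 in control libraries (SD, n = 4 each). DGCR8, the partner of Drosha, rose by 0.72 on the log2 scale, and the interferon-inducible sensors OAS3 and IFIH1 fell by 1.12 and 1.06. ZFC3H1, MTREX, OAS3 and IFIH1 were chosen after their values were seen.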

How the data were processed

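Poly(A) RNA of H1 cells was sequenced (BGISEQ, per the labels' protocols) in 4 NAT10 knockdown and 4 control shRNA libraries grouped by their titles. The submitters' processing notes name DESeq2 1.26.0, featureCounts 2.0.3, HISAT2 2.2.1, fastp 0.21.1 and SAMtools 1.12, with hg38. For annotation and strand the setting was not given in the sources used here. Values were deposited as a signal, counts divided by each library's size factor: 100% were whole multiples of 1 step within 1e-06 of a read, which gave back 15574631 to 16305014 reads per library. No gene of the table had fewer than 4 libraries with 10 reads or more.

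Groups were compared with limma 3.58.1 (moderated, with trend and robust settings; R 4.3.3) on log2(value + 1), Benjamini-Hochberg adjusted over 17546 genes at 0.05. Fold changes on this scale understate those of low genes. Log2 ratios of 4150 neighbouring pairs were fitted likewise. Symbols matched 17532 IDs, and 17225 had a GENCODE 29 entry. Tested on simulated data of the 17546 genes, limma called 32 of 50 genes simulated at 1.25-fold, 43 at 1.5-fold, 45 at 2-fold and 50 at 4-fold, with 17 of 17346 unchanged genes. For ratios it called 7 of 26 pairs at a mean of 1.25-fold, 18 of 24 at 1.5-fold and 33 of 39 at 2.96-fold. Far fewer genes were changed there than the 64.7% called in the data, so these counts may not carry over. The members, lists and tests were chosen with earlier results of these data known.

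Named genes were NAT10, the 10 largest rises and 10 largest falls without overlap, the 6 highest means, up to 8 pairs each by opposite change, same change and ratio, the 2 members just inside and 2 genes just outside the minimum, listed antisense genes, 2 genes per list, and partners. Alternatives were other scalings, edgeR 4.0.16 and DESeq2 1.42.0 on recovered reads, pseudocounts of 0.5 and 5, filters, a replicate block and leaving out each library. Figures used matplotlib 3.10.9.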

Additional observations from a re-analysis of the deposited data

Results flagged for a closer look

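In 166 groups of 4 libraries, 6 held a library set far apart from the other 3, where chance gives about 1 in 20. GLIPR1 had 20.3 normalized counts in control replicate 1, against 11.5 to 11.9 in the other controls. GLIPR1-AS1 stood out in the same library, at 44.5 against 29.7 to 31.6. NARF-AS2 had 27.8 in control replicate 3, against 19.8 to 20.3, and TNS2-AS1 had 87.1 there, against 69.6 to 72.2. RGMB-AS1, just below the minimum mean, had 20.5 in knockdown replicate 4, against 29.9 to 31.5 in the other knockdown libraries. DHX9 had 8159 in knockdown replicate 3, against 8570 to 8649.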

How the results depend on the processing

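With a mean of at least 100 in place of 30, which leaves 78 members by construction, 58 antisense genes were called (20 up, 38 down), as were 50 partners (28 up, 22 down), and 39 pairs had both genes called, 28 in the same and 11 in opposite directions. Among pairs with no exon overlap the ratio fell in 23 and rose in 7. With library totals 6 nuclear RNA surveillance genes rose. No pairing by replicate number was seen: deviations of same-numbered libraries correlated at -0.16 to -0.04 and those of other-numbered ones at -0.19 to 0.18. These values cannot tell whether same-numbered libraries were prepared together. With the replicate block 144 antisense genes were called (49 up, 95 down). Leaving out 1 library at a time, the called antisense genes numbered 132 to 150. DESeq2 called 129 antisense genes and edgeR 148. Of the log2 fold changes of named genes under the alternatives, 1286 kept their direction and side of the threshold, 10 passed it newly, 5 lost it and 22, of 7 genes, turned sign, as did 5 ratios of 2 pairs. None of these turned values was called, with or without the alternative (limma, and edgeR for MAGI2). With library totals MAGI2 was at -0.10, SLC25A21 at -0.068 and SLC25A25 at -0.10, with edgeR MAGI2 was at -0.0031, and with a pseudocount of 5 the HRG-AS1 log2 ratio was 0.31. Leaving out 1 library, log2 fold changes ran from -0.059 to 0.012 for FOXD3-AS1, -0.24 to 0.012 for KDM4A-AS1, -0.20 to 0.039 for KIF25-AS1, -0.022 to 0.038 for MAGI2, -0.19 to 0.082 for RGMB-AS1, -0.018 to 0.13 for SLC25A21 and -0.021 to 0.062 for SLC25A25, and log2 ratios from -0.22 to 0.095 for HRG-AS1 and -0.046 to 0.073 for NNT-AS1. Depth limits the genes near the minimum mean.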
